A study of Mus musculus with 42 samples.

Results

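The genes examined here encode the cytosolic translation initiation factors (eIF1 to eIF6, with the eIF2 kinases and the eIF4E-binding proteins) and the elongation factors (eEF1 and eEF2). Members were every gene whose symbol begins with Eif1 to Eif6, or with Eef1 or Eef2, except Eif4ebp1 and processed pseudogenes. This rule uses names only and took 61 of the 13809 genes in the table of TA (tibialis anterior) muscle RNAseq. All 61 passed the filter on low values (a value of 1 or more in any library of the set) in both sets of libraries.

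Protein synthesis starts when eIF2, charged with GTP and the initiator tRNA, joins the small ribosomal subunit together with eIF1, eIF1A, eIF3 and eIF5, and the resulting complex is brought to the capped mRNA by eIF4F. In eIF4F, eIF4E binds the cap, eIF4G is the scaffold and eIF4A is the RNA helicase, while the 4E-BP proteins hold eIF4E back when mTORC1 is inactive. Elongation then uses eEF1A, which carries aminoacyl-tRNA to the ribosome, the exchange factor eEF1B, and eEF2, which moves the ribosome along. Mammals have a widely expressed eEF1A gene, Eef1a1, and a second, Eef1a2, that takes its place in adult skeletal muscle fibers, heart and neurons.

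The 42 libraries come from TA muscles of male C57BL/6J mice aged 4 months and fall into 11 groups in 2 sets. In set 1, basal and immobilized muscles came from wild type (WT) mice, from Sesn1SkM-Tg mice, which carry human Sesn1 under the muscle promoter of MCK, and from Sesn2SkM-Tg mice, which carry human Sesn2 under a Tet-regulated promoter driven by MCK-tTA. Set 2 has WT and Sesn1-/- mice (Sesn1KO, a whole-body knockout), each with basal and immobilized muscles, and denervated WT muscles. Groups have 4 libraries, except immobilized WT of set 1 and immobilized Sesn1SkM-Tg with 3 each. The right hindlimb was immobilized with a splint, or a segment of its sciatic nerve was removed, and basal muscles came from mice without either procedure. By the study's text immobilization lasted 3 days, while for denervation its methods give 3 or 10 days. No label says which libraries share an animal or litter, so p-values measure the spread between these libraries.

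Each value is a normalized count, close in scale to CPM, so the number of reads behind it is unknown and no counting error is given. The values of a library summed to 1007830 to 1276769 in basal, 766506 to 1126678 in immobilized and 722430 to 811541 in denervated muscles. The 9 myofiber markers (Ckm, Acta1 and fast myosin genes among them) summed to 136310.0 to 172174 in basal WT muscles of set 1 and 149472 to 164614 in those of set 2. Sesn1 was at 25.8 ± 3.67 (SD, n = 4) in basal WT and 9.14 ± 0.676 in basal Sesn1KO muscles of set 2, and at 26.0 ± 8.48 in immobilized Sesn1KO muscles, where replicate 1 read 37.3. The transgenes are human and the reads were set against mouse transcripts, so they can be counted in part only, and Sesn1 was at 59.4 ± 15.5 in basal Sesn1SkM-Tg and 18.5 ± 3.37 in basal WT muscles of set 1. Basal WT replicate 4 and basal Sesn2SkM-Tg replicate 2 of set 1 stood apart from their groups for several members, and the counts for set 1 are therefore also given without both.

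RefSeq promoter sequences (GRCm38.p6, 250 bases before to 50 bases after a start) were at hand for 49 of the 61 members. The eEF1A genes are shown first because they moved in opposite directions after denervation. Each stretch runs 5′ to 3′ on the gene's strand from 100 bases before the start to 30 bases after it, with CCGCCC (the reverse complement of GGGCGG, known as a GC box) and TATAA in capitals.
Eef1a1, chr9:78481695-78481824, minus strand: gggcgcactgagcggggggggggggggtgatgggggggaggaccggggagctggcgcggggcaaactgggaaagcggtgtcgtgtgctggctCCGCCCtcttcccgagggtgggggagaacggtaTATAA
Eef1a2, chr2:181156986-181157115, minus strand: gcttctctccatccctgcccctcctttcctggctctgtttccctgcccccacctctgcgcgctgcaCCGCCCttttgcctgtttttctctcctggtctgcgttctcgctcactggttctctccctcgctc

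Both stretches hold a GC box, beginning 8 bases before the start in Eef1a1 and 34 bases before it in Eef1a2. TATAA stands in the Eef1a1 stretch only, from base 26 after the start. GGGCGG, read on both strands, is common: it was in 70.3% of the 64 promoters of members and in 60.7% of the 12741 promoters of genes in the table. TATAA, read on both strands, was in a promoter of 16.3% of the 49 members and of 16.5% of the 9957 genes of the table with one.

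The second pair encodes the helicase eIF4A. For these genes the 250 bases before the start are given, with CACGTG, the palindromic E-box, in capitals.
Eif4a1, chr11:69672424-69672673, minus strand: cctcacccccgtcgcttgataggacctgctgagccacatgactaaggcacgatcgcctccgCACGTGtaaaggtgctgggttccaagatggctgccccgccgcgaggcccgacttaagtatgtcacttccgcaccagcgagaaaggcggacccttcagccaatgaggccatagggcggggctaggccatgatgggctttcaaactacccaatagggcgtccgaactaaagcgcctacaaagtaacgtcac
Eif4a2, chr16:23107218-23107467, plus strand: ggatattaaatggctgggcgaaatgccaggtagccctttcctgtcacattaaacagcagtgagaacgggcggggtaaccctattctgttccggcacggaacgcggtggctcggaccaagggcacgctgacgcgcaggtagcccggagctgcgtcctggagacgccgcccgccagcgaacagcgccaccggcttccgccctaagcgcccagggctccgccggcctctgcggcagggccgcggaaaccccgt

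CACGTG begins 189 bases before the start of Eif4a1, and these letters are not in the Eif4a2 window. Of the 49 members with a promoter, 12 (24.5%) have CACGTG in it, against 11.7% of the 9957 genes of the table and 8.09% of all 27025 genes in the promoter collection. They are Eif4a1, Eif4e, Eif4g1 and Eif4h of the cap complex, Eif3a, Eif3f, Eif3k, Eif1b, Eif5a and Eif5a2 among the other initiation factors, and Eef2 and its kinase Eef2k. No test was made of this share. The 26 bases around an E-box are shown for the other 3 genes of the cap complex and for Eef2, which moved in different directions. For Eif4e an E-box was found at -228 and at -64 from a start, and for Eif4g1 at -54 and 16. Positions were pooled over all starts of a gene, so those of a gene may be counted from different starts. The first position of each gene is shown.
Eif4e, chr3:138527030-138527055, plus strand: cgccagcgacCACGTGatcacttttt
Eif4g1, chr16:20672663-20672688, plus strand: cagtgggtgtCACGTGatggggcgga
Eif4h, chr5:134639490-134639515, minus strand: gccgccgcacCACGTGggccgcagag
Eef2, chr10:81176578-81176603, plus strand: ccggcgccgtCACGTGacgcacccaa

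Translation factors rose more often than they fell in set 2, most of all after denervation. In set 1 they did so in WT and Sesn2SkM-Tg but not in Sesn1SkM-Tg muscle. Across set 1, 8.2% to 19.7% of them rose, against 14.9% to 18.2% of all genes. Those that fell were 6.56% to 13.1%, against 14.5% to 16.5% of all genes. Calls needed an adjusted p under 0.05 (limma with Benjamini-Hochberg adjustment over all genes of the set) and a log2 fold change beyond 0.25 either way, on the scale of log2(normalized count + 1). Denervated WT muscle had 39 members higher and 4 lower than basal muscle, when 27.8% of the 13629 genes tested were higher and 27.7% lower. The members' median log2 fold change was 0.43, and the median of all genes was -0.027. In set 2, immobilized WT muscle had 29 members higher and 4 lower (all genes 16.2% and 17.7%) with a median of 0.25, and immobilized Sesn1KO muscle 28 higher and 2 lower (17.2% and 19.9%) with a median of 0.21.

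In set 1, immobilized WT muscle had 11 members higher and 5 lower, when 14.9% of 13705 genes were higher and 14.5% lower. Immobilized Sesn2SkM-Tg muscle had 12 higher and 4 lower (all genes 15% and 15.7%), and immobilized Sesn1SkM-Tg muscle 5 higher and 8 lower (18.2% and 16.5%). The median log2 fold changes of the members were 0.13, 0.10 and 0.0064 in that order. Without basal WT replicate 4 and basal Sesn2SkM-Tg replicate 2, WT had 18 higher and 7 lower (all genes 16.7% and 18.3%), Sesn2SkM-Tg 18 and 6 (17.5% and 20.2%), and Sesn1SkM-Tg 13 and 14 (20.7% and 21.6%). Neither library is in the Sesn1SkM-Tg comparison, but both enter its estimate of the spread. Its median stayed at 0.0064. The plot of shares called sets the members beside all genes in each comparison.

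**Figure D1:**
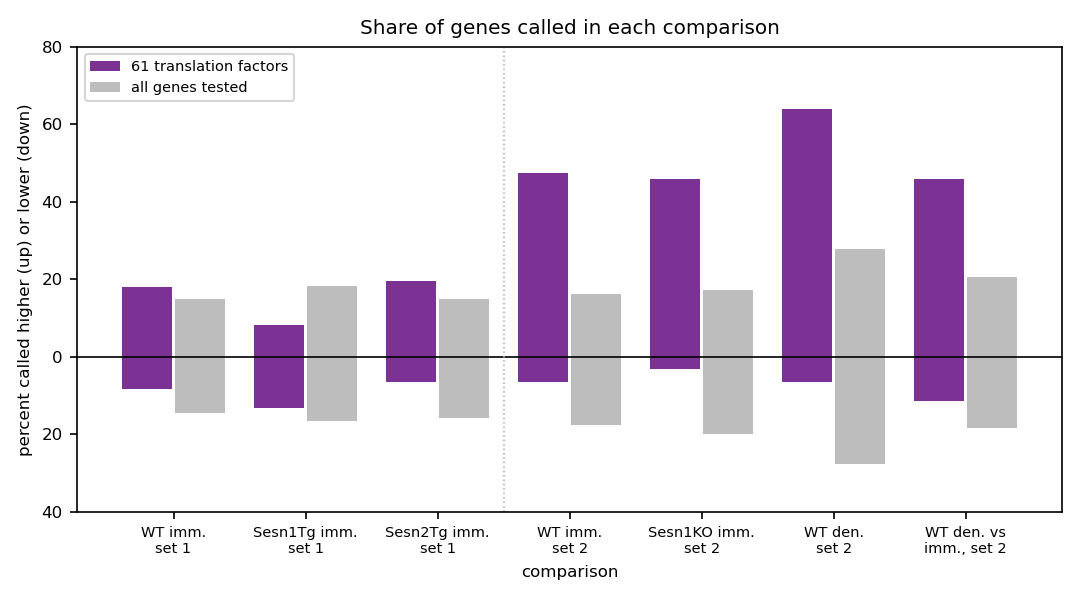
Percent of the 61 translation factors (purple) and of all genes tested (gray) called higher (upward bars) or lower (downward bars) in each comparison, against basal muscle except the last; imm., immobilized, den., denervated. In the 4 comparisons of set 2 the purple upward bars reach 45.9% to 63.9% and stand above the gray ones, while in the 3 of set 1 they reach 8.2% to 19.7% beside gray bars of 14.9% to 18.2%. The purple downward bars of set 1 reach 6.56% to 13.1% beside gray ones of 14.5% to 16.5%.

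The values of a library summed to less after disuse, and these splits depend on the scale. With every library rescaled to a sum of 1000000, the median of all genes shifted up, to 0.25 to 0.28 in the 3 comparisons of set 1, 0.064 to 0.077 in immobilized muscle of set 2, and 0.35 after denervation. The members' medians were then 0.43 in WT, 0.31 in Sesn1SkM-Tg and 0.41 in Sesn2SkM-Tg muscle of set 1, 0.37 in WT and 0.33 in Sesn1KO muscle of set 2, and 0.89 after denervation, above the shifted median of all genes in each comparison. The counts higher and lower were 31 and 0 in WT (all genes 29.8% and 5.39%), 22 and 1 in Sesn1SkM-Tg (30.2% and 6.36%) and 33 and 1 in Sesn2SkM-Tg muscle (28.6% and 6.97%). In set 2 they were 35 and 3 in WT (21.5% and 11.9%), 35 and 2 in Sesn1KO (21.7% and 14.4%) and 50 and 1 after denervation (46.6% and 13.8%). Quantile normalization gave 17 and 3 in WT (all genes 13.5% and 13.9%), 16 and 5 in Sesn1SkM-Tg (15.6% and 16.4%) and 15 and 2 in Sesn2SkM-Tg muscle of set 1 (14.4% and 14.9%). Directions below are on the deposited scale, and the ratios of 2 genes within a library do not depend on it.

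**Figure D2:**
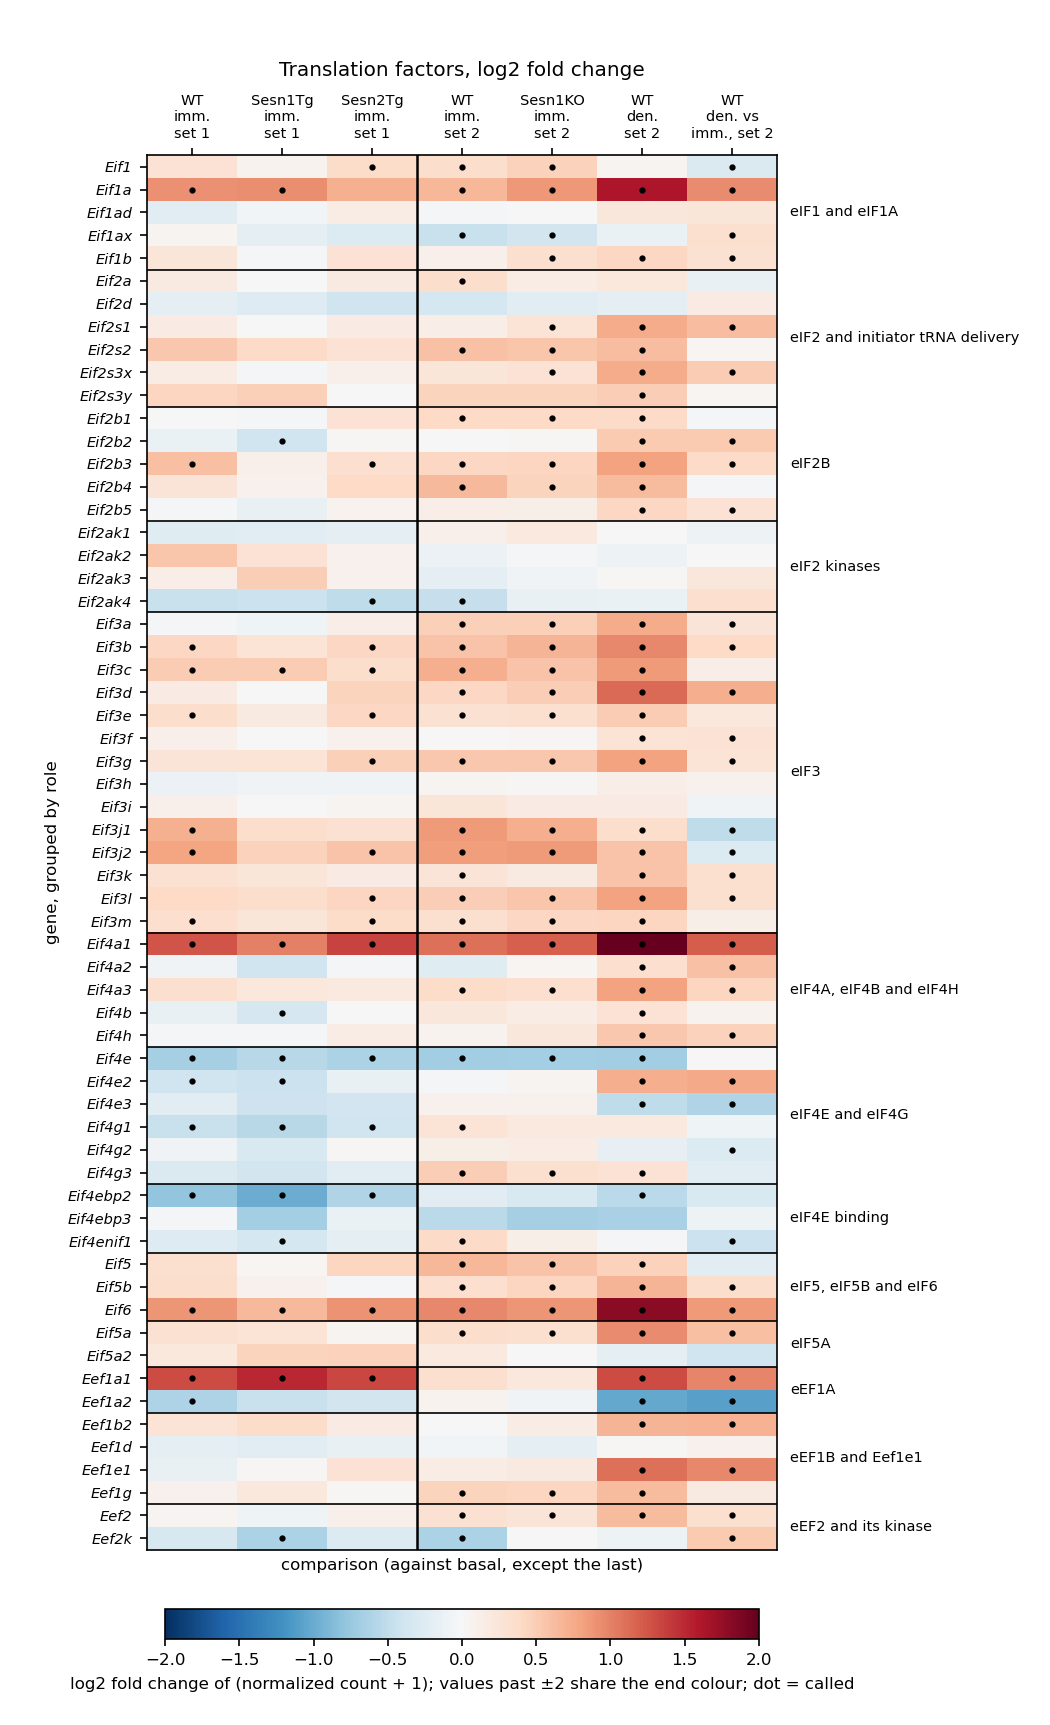
Log2 fold change (color, red higher and blue lower) of each of the 61 translation factors (lines of the map, grouped by role) in 7 comparisons (columns, set 1 left of the vertical line). A black dot marks a called gene. Eif4a1 and Eif6 are red in every column and Eif4e is blue in the 6 columns against basal muscle, while Eef1a1 is dark red in the columns of set 1 and of denervated muscle only.

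In basal WT muscle of set 2 Eef1a2 had the highest level of all members per kb of exon, 616 ± 25.6 normalized counts per kb (SD, n = 4), followed by Eef2 at 357 ± 27.3, Eif1 at 256 ± 5.49, Eef1g at 132 ± 2.90 and Eef1a1 at 119 ± 28.7. The lowest were Eif5a2 at 0.323 ± 0.0706 and the kinases Eif2ak3 at 0.75 ± 0.157 and Eif2ak4 at 0.858 ± 0.205.

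The elongation factor genes Eef1a1 and Eef1a2 changed in opposite directions after denervation. Eef1a1 (ENSMUSG00000037742, chromosome 9, 78478449 to 78489151, minus strand) read 251, 323, 383 and 225 in basal WT muscles of set 2 and 966, 918, 646 and 454 in denervated ones. Every denervated library was above every basal one (log2 fold change 1.30, SE 0.24, adjusted p = 0.00011). Eef1a2 (ENSMUSG00000016349, chromosome 2, 181147653 to 181157014, minus strand) read 1316, 1229.6, 1249.5 and 1342 in the same basal muscles and 562, 568, 705 and 708 in the denervated ones. Here every denervated library was below every basal one (log2 fold change -1.02, SE 0.10, adjusted p = 1.79e-08).

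The 3 immobilized groups of set 1 showed the same rise of Eef1a1. It read 256, 218, 272 and 304 in basal and 522, 614 and 849 in immobilized WT muscles (log2 fold change 1.31, SE 0.20, adjusted p = 0.000136). In Sesn1SkM-Tg muscles it was 270.3 ± 44.9 basal (SD, n = 4) and 790.0 ± 239 immobilized (n = 3), a log2 fold change of 1.51 with an adjusted p of 2.99e-05. In Sesn2SkM-Tg muscles it was 231 ± 29.8 and 586 ± 80.5 (n = 4 each), a log2 fold change of 1.34 with an adjusted p of 2.37e-05. No immobilized library of set 1 overlapped the basal ones of its genotype, and leaving out any 1 library kept each of these calls.

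Immobilization in set 2 did not give a called change of either gene. Eef1a1 read 355, 267, 346 and 518 in immobilized WT muscles, overlapping the basal values (log2 fold change 0.32, SE 0.24, adjusted p = 0.334), and 395, 465, 221 and 322 in immobilized against 238, 297, 312 and 327 in basal Sesn1KO muscles (log2 fold change 0.21, SE 0.24, adjusted p = 0.519). Eef1a2 was at 1353 ± 153 in immobilized WT muscles of set 2 (log2 fold change 0.069, SE 0.10, adjusted p = 0.626) and 1273 ± 87.4 in immobilized Sesn1KO muscles (log2 fold change -0.076, SE 0.10, adjusted p = 0.574). In set 1, Eef1a2 read 1229, 1153, 1051 and 1957 in basal and 814, 1018 and 753 in immobilized WT muscles and was called lower (log2 fold change -0.61, SE 0.20, adjusted p = 0.0288). That call rests on single libraries: Eef1a2 was no longer called without WT basal replicate 4 or WT immobilized replicate 1 or 3 (-0.58 to -0.42), and it had a log2 fold change of -0.27 with libraries rescaled to 1000000. In Sesn1SkM-Tg and Sesn2SkM-Tg muscles its log2 fold changes were -0.45 (adjusted p = 0.0934) and -0.37 (adjusted p = 0.146).

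**Figure D3:**
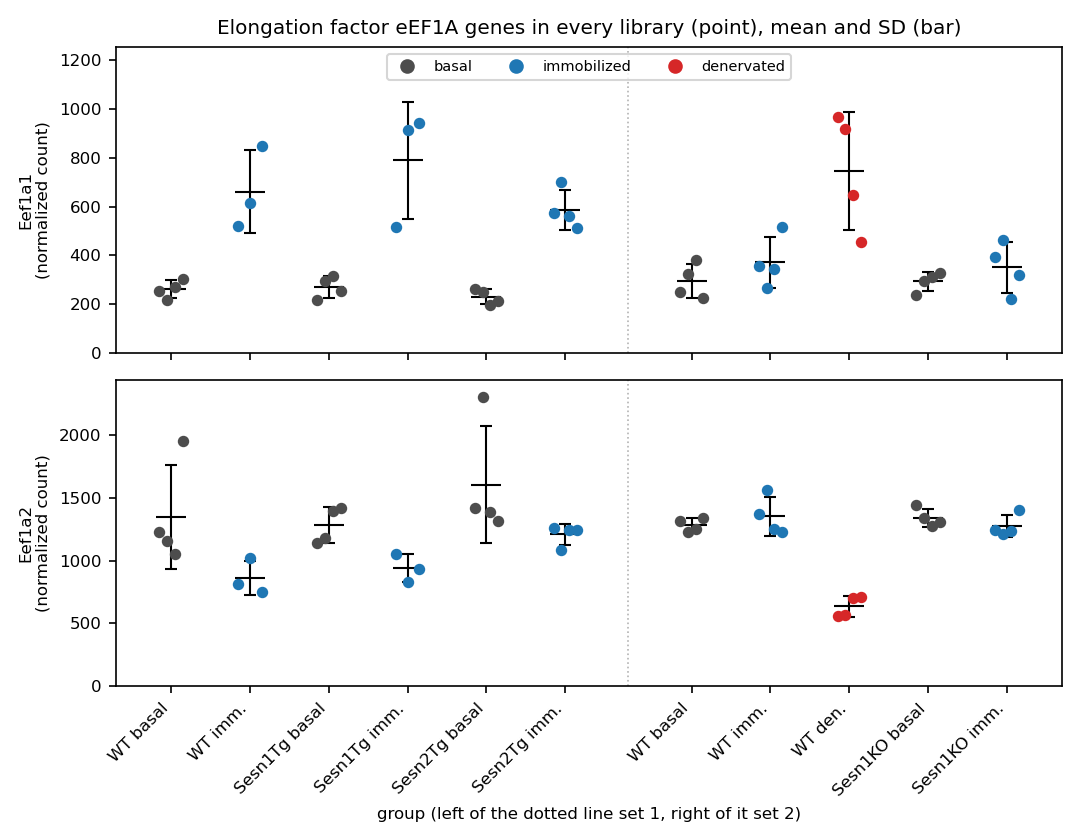
Normalized counts of Eef1a1 (upper panel) and Eef1a2 (lower panel) in each library (points, colored by treatment), with the group mean (wide bar) and SD (error bar); the dotted line parts set 1 from set 2. Eef1a1 reaches 454 to 966 in denervated and 511 to 942 in immobilized muscles of set 1, above all basal libraries, and Eef1a2 is lowest in denervated muscle.

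The ratio of Eef1a1 to Eef1a2 within a library was 0.232 ± 0.0641 in basal WT muscles of set 2 (SD, n = 4) and 1.22 ± 0.528 in denervated ones, where the libraries read 1.72, 1.62, 0.916 and 0.641. Denervated replicates 1 and 2 had the higher ratios, and replicate 4 the lowest. Per kb of exon (2.49 kb for Eef1a1 and 2.08 kb for Eef1a2 in GENCODE M21), the ratio went from 0.194 ± 0.0536 to 1.02 ± 0.441. In set 1 the ratio of normalized counts went from 0.203 ± 0.0432 to 0.79 ± 0.292 in WT, from 0.211 ± 0.0329 to 0.865 ± 0.329 in Sesn1SkM-Tg and from 0.15 ± 0.0319 to 0.49 ± 0.105 in Sesn2SkM-Tg muscle, with no overlap. In set 2 immobilized muscles were at 0.171 to 0.422 for WT and 0.18 to 0.385 for Sesn1KO, overlapping basal values of 0.168 to 0.306 and 0.165 to 0.25.

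Two-sided exact permutation tests of the log2 ratio over 7 comparisons reached the smallest p possible for denervated against basal, denervated against immobilized and Sesn2SkM-Tg immobilized against basal muscle (each p = 0.0286 and 0.0667 after Benjamini-Hochberg adjustment over the 7). They also did so for WT and Sesn1SkM-Tg muscle of set 1, where 3 libraries against 4 cannot go below 0.0571 (adjusted p = 0.08). None of the 7 passed 0.05 after adjustment, and for immobilized muscle of set 2 the p was 0.543 in WT and 0.343 in Sesn1KO. The plot of isoform ratios shows every library.

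**Figure D4:**
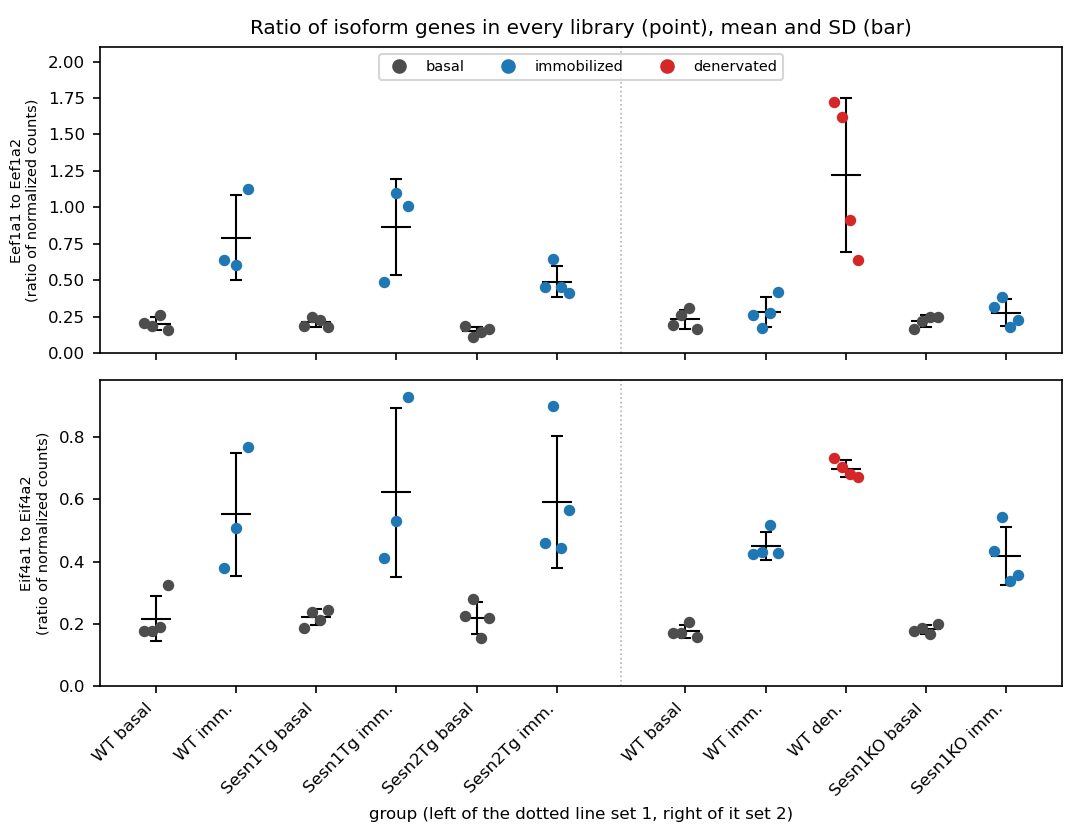
Ratio of the normalized counts of Eef1a1 to Eef1a2 (upper panel) and of Eif4a1 to Eif4a2 (lower panel) in each library (points, colored by treatment), with the group mean (wide bar) and SD (error bar); the dotted line parts set 1 from set 2. Immobilized muscles of set 2 overlap basal ones in the upper panel (0.171 to 0.422 in WT), whereas all disuse groups stand apart from basal muscle in the lower panel.

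Markers of other cell types differed between the groups in which Eef1a1 was higher. In immobilized WT and Sesn1SkM-Tg muscle of set 1 all 8 leukocyte markers were called higher, and their sum was 173 to 363 and 140.5 to 395 against 36.6 to 54.8 and 24.9 to 50.5 in basal muscle. The 5 fibroblast markers summed to 757 to 1362 and 865 to 2347 against 336 to 796 and 339.8 to 526, with 3 and 5 called higher. In immobilized Sesn2SkM-Tg muscle 4 of the 8 leukocyte markers were higher (sum 86.4 to 247 against 36.0 to 50.5) and 0 of the 5 fibroblast markers (sum 362 to 749 against 370.2 to 489). Of the 5 endothelial markers 2, 3 and 4 were higher in WT, Sesn1SkM-Tg and Sesn2SkM-Tg muscle of set 1 (and 1 lower in WT), with sums of 225 to 272, 251 to 289 and 271 to 370.1 against 168 to 237, 161 to 239 and 154 to 207. Of the 4 Schwann cell markers 2, 4 and 3 were higher in the same order, with sums of 12.5 to 35.4, 17.8 to 35.9 and 24.2 to 25.8 against 4.86 to 10.2, 3.62 to 9.998 and 3.43 to 15.99. The same 3 groups each had 4 of the 9 myofiber markers lower (and 1 higher in Sesn1SkM-Tg), with sums of 84351 to 102822, 81294 to 116522 and 82266 to 115341 against 136310.0 to 172174, 140626 to 151450.0 and 156000.0 to 180991. In immobilized WT muscle of set 2, where Eef1a1 was not called, 2 of the 8 leukocyte markers were higher, with a sum of 104 to 201. Its fibroblast sum was 440 to 1332 against 422 to 668 in basal WT muscle. In immobilized Sesn1KO muscle, where Eef1a1 was not called either, the leukocyte sum was 52.3 to 319 against 41.0 to 68.6. The fibroblast sum of immobilized Sesn1KO muscle was 338 to 997 against 514 to 1269. In denervated muscle the leukocyte sum was 42.7 to 114, within the 30.6 to 139 of basal muscle, with 1 of 8 higher, and the fibroblast sum was 288 to 462 against 422 to 668, with 2 of 5 lower. Satellite cell markers in immobilized muscle summed to 57.4 to 75.6 in WT of set 1 (basal 34.6 to 47.4). In immobilized Sesn1KO muscle their sum was 52.3 to 70.8 (basal 41.0 to 47.8). It overlapped basal values in immobilized Sesn1SkM-Tg, Sesn2SkM-Tg and set 2 WT muscle. In denervated muscle the satellite cell markers summed to 149.9 to 176 against 39.5 to 49.5, with 2 of 5 higher. All 9 myofiber markers were lower there, summing to 58084 to 77440.1 against 149472 to 164614, and so were all 5 endothelial markers, summing to 134 to 167 against 259 to 333. In immobilized muscle of set 2 the endothelial markers were lower in 4 of 5 for WT and 3 of 5 for Sesn1KO. The Schwann cell markers summed to 3.44 to 7.09 in denervated muscle against 15.6 to 26.0 in basal WT muscle of set 2. In immobilized muscle of set 2 they summed to 7.73 to 19.2 in WT and 7.50 to 13.7 in Sesn1KO (basal Sesn1KO 13.4 to 37.4). No value in the table is 0. The part of these cells in the change of Eef1a1 and Eef1a2 was not tested, and in bulk muscle fewer cells of a type and less RNA per cell cannot be told apart.

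Of the 3 subunits of eEF1B, the exchange factor that reloads eEF1A with GTP, 2 were higher after denervation, when 27.8% of all genes were. Eef1b2 went from 103 ± 8.83 to 167 ± 21.3 (log2 fold change 0.68, SE 0.10, adjusted p = 3.55e-06) and Eef1g from 343 ± 7.53 to 532 ± 35.3 (log2 fold change 0.63, SE 0.075, adjusted p = 4.26e-07). Eef1d was at 84.0 ± 3.37 and 85.8 ± 3.49 (log2 fold change 0.031, SE 0.10, adjusted p = 0.809). Eef1g was also higher in immobilized muscle of set 2, in WT (log2 fold change 0.44, SE 0.075, adjusted p = 0.00011) and in Sesn1KO (log2 fold change 0.43, SE 0.075, adjusted p = 0.000126). Eef1e1, named as an elongation factor but known as a part of the multisynthetase complex (p18, AIMP3), went from 11.3 ± 2.38 to 25.2 ± 2.06 after denervation (log2 fold change 1.11, SE 0.14, adjusted p = 1.36e-06). Immobilized muscle of set 1 had no call among these 4 genes, when 29.3% to 34.7% of all genes were called. Eef1g and Eef1b2 were highest among its basal WT libraries in replicate 4, at 609 and 159.7.

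Eef2, the translocase, read 1315, 1121, 1125 and 1181 in basal and 1880.3, 2014, 1794 and 1643 in denervated WT muscle, all denervated libraries above all basal ones (log2 fold change 0.63, SE 0.094, adjusted p = 8.38e-06). It was also called in immobilized WT (log2 fold change 0.30, SE 0.094, adjusted p = 0.0166) and Sesn1KO muscle of set 2 (log2 fold change 0.26, SE 0.094, adjusted p = 0.0329). The WT call was lost without WT basal replicate 3 (0.28), and the Sesn1KO call was lost without Sesn1KO basal replicate 3 or 4 or Sesn1KO immobilized replicate 2 or 4 (0.20 to 0.26). In set 1 its log2 fold changes were 0.055 ± 0.16 (SE) in WT, -0.082 ± 0.16 in Sesn1SkM-Tg and 0.10 ± 0.15 in Sesn2SkM-Tg muscle, none of them called. Eef2k, the kinase that inactivates eEF2, read 80.5, 72.2, 70.1 and 88.1 in basal, 47.9, 39.0, 46.4 and 70.5 in immobilized and 61.6, 49.6, 87.6 and 100.4 in denervated WT muscle of set 2. It was called lower after immobilization (log2 fold change -0.63, SE 0.18, adjusted p = 0.011) but not after denervation (log2 fold change -0.10, SE 0.18, adjusted p = 0.657), where the 4 libraries spread from 49.6 to 100.4. It was also lower in immobilized Sesn1SkM-Tg muscle (log2 fold change -0.63, SE 0.18, adjusted p = 0.0102), a call that was lost without Sesn1SkM-Tg immobilized replicate 2 (-0.53), and in Sesn1KO muscle its log2 fold change was -0.012 ± 0.18.

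The mRNAs of most elongation factors and of some initiation factors are known to begin with a terminal oligopyrimidine (TOP) tract, which places their translation under mTORC1. Of 10 such members (Eef1a1, Eef1a2, Eef1b2, Eef1d, Eef1g, Eef2, Eif3e, Eif3f, Eif3h and Eif4b), 7 were higher and 1 lower after denervation (all genes 27.8% and 27.7%), with a median log2 fold change of 0.40. In immobilized muscle of set 2 3 were higher and 0 lower in each genotype (all genes 16.2% and 17.7% in WT, 17.2% and 19.9% in Sesn1KO), with medians of 0.15 in both. In set 1 the counts higher and lower were 2 and 1 in WT (14.9% and 14.5%), 1 and 1 in Sesn1SkM-Tg (18.2% and 16.5%), and 2 and 0 in Sesn2SkM-Tg muscle (15% and 15.7%), with medians of 0.069, -0.028 and 0.048.

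Among initiation factors the helicase Eif4a1 had the highest fold changes. Eif4a1 (ENSMUSG00000059796, chromosome 11, 69666936 to 69672423, minus strand) read 55.2, 51.2, 62.8 and 48.3 in basal, 99.0, 115, 149 and 109 in immobilized and 269, 294, 259.6 and 266 in denervated WT muscle of set 2. The 3 groups did not overlap and rose in that order (log2 fold change 1.09, SE 0.13, adjusted p = 2.29e-06 for immobilized and log2 fold change 2.31, SE 0.13, adjusted p = 9.53e-12 for denervated against basal). In Sesn1KO muscle it went from 56.5 ± 4.39 to 133 ± 28.1 (log2 fold change 1.198, SE 0.13, adjusted p = 4.74e-07). In set 1 it went from 66.9 ± 2.59 to 164 ± 37.0 in WT (log2 fold change 1.26, SE 0.21, adjusted p = 0.000312), from 72.4 ± 7.34 to 151 ± 51.1 in Sesn1SkM-Tg (log2 fold change 1.01, SE 0.21, adjusted p = 0.00138) and from 69.6 ± 10.4 to 185 ± 61.4 in Sesn2SkM-Tg muscle (log2 fold change 1.36, SE 0.20, adjusted p = 3.61e-05). All 6 calls against basal held with any 1 library left out.

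Its near relative Eif4a2 was the more abundant of the pair in basal muscle, at 57.6 ± 2.097 normalized counts per kb of exon against 12.5 ± 1.45 for Eif4a1 (WT, set 2). Eif4a2 read 324, 298, 303 and 306 in basal, 234, 267, 289 and 255 in immobilized and 367, 418, 381 and 396 in denervated WT muscle. It was called only after denervation (log2 fold change 0.34, SE 0.074, adjusted p = 0.000479), and in immobilized WT muscle of set 2 its change (log2 fold change -0.24, SE 0.074, adjusted p = 0.0154) fell short of the fold threshold. The ratio of Eif4a1 to Eif4a2 was 0.177 ± 0.0211 in basal, 0.45 ± 0.0441 in immobilized and 0.697 ± 0.0273 in denervated WT muscle, and 0.183 ± 0.0139 and 0.418 ± 0.0938 in basal and immobilized Sesn1KO muscle. In set 1 it went from 0.217 ± 0.0713 to 0.551 ± 0.198 in WT, from 0.221 ± 0.0256 to 0.622 ± 0.27 in Sesn1SkM-Tg and from 0.22 ± 0.0512 to 0.592 ± 0.211 in Sesn2SkM-Tg muscle. Groups overlapped in none of the 7 comparisons. By two-sided exact permutation tests the 5 with 4 libraries a group had p = 0.0286 (adjusted p = 0.04 over the 7), and the 2 with 3 against 4 had p = 0.0571 (adjusted p = 0.0571), the smallest these designs allow. The remaining genes of this role, all helicase or its cofactors, rose after denervation, when 27.8% of all genes were called higher. Eif4a3 (of the exon junction complex) rose by 0.80, Eif4h by 0.53 and Eif4b by 0.29 on the log2 scale. Eif4b was called lower in immobilized Sesn1SkM-Tg muscle (log2 fold change -0.34, SE 0.13, adjusted p = 0.0489), and was no longer called without Sesn1SkM-Tg basal replicate 1, 3 or 4 or Sesn1SkM-Tg immobilized replicate 2 or 3 (-0.37 to -0.23).

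Eif4e, which encodes the cap-binding protein itself, was lower in all 6 disuse groups. Eif4e (ENSMUSG00000028156, chromosome 3, 138526179 to 138559696, plus strand) read 99.7, 109, 106 and 108 in basal, 51.7, 62.6, 77.3 and 71.0 in immobilized and 59.5, 71.7, 64.5 and 64.1 in denervated WT muscle of set 2. Disuse libraries lay below all basal ones, with log2 fold changes of -0.69 ± 0.10 (SE) for immobilization and -0.70 ± 0.10 for denervation, and the 2 disuse groups overlapped (difference -0.0033 ± 0.10). The log2 fold change was -0.67 ± 0.10 in Sesn1KO, -0.66 ± 0.13 in WT of set 1, -0.56 ± 0.13 in Sesn1SkM-Tg and -0.63 ± 0.12 in Sesn2SkM-Tg muscle, with adjusted p from 7.44e-06 to 0.00224 over the 6. With libraries rescaled to 1000000 it stayed below 0 in all 6 but was not called in WT of set 1 (-0.32), Sesn1SkM-Tg (-0.25) or denervated muscle (-0.24).

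Its relatives behaved otherwise. Eif4e2, a cap-binding protein linked to repression and to hypoxia, was higher after denervation, 46.9 ± 3.28 against 78.5 ± 5.03 (log2 fold change 0.73, SE 0.084, adjusted p = 2.24e-07), and lower in immobilized WT (-0.39) and Sesn1SkM-Tg muscle of set 1 (-0.43). The WT call was lost without WT basal replicate 3 or WT immobilized replicate 2 or 3 (-0.37 to -0.33). Eif4e3 was lower after denervation, 31.1 ± 2.71 against 21.7 ± 1.84 (log2 fold change -0.50, SE 0.14, adjusted p = 0.00484). Under rescaling both set 1 changes of Eif4e2 (-0.062 and -0.12) and the denervation change of Eif4e3 (-0.054) were not called.

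The scaffold gene Eif4g1 moved in opposite directions in WT muscle of the 2 sets. It read 712, 699, 659.7 and 689 in basal and 563, 479 and 478 in immobilized WT muscle of set 1, with no overlap (log2 fold change -0.45, SE 0.12, adjusted p = 0.00894). It was also lower in Sesn1SkM-Tg (log2 fold change -0.55, SE 0.12, adjusted p = 0.00169) and Sesn2SkM-Tg muscle (log2 fold change -0.41, SE 0.11, adjusted p = 0.00896). In set 2 it read 581, 594, 537 and 599 in basal and 705, 780.0, 688 and 622 in immobilized WT muscle, again with no overlap but higher (log2 fold change 0.27, SE 0.10, adjusted p = 0.0497). The call of set 1 in WT was lost without WT immobilized replicate 3 (-0.41), and that of set 2 was lost without WT basal replicate 1, 2, 3 or 4 or WT immobilized replicate 1, 2 or 3 (0.22 to 0.29). Under rescaling the 3 changes of set 1 were -0.11, -0.24 and -0.093 and none was called, and quantile normalization left none called either. Eif4g3, a second scaffold, was higher in set 2 in immobilized WT (0.49 ± 0.11, SE), Sesn1KO (0.32 ± 0.11) and denervated muscle (0.28 ± 0.11). The Sesn1KO call was lost without Sesn1KO basal replicate 1, 3 or 4 or Sesn1KO immobilized replicate 2 or 4 (0.28 to 0.32), and the denervation call was lost without WT basal replicate 1, 2 or 3 or WT denervated replicate 3 or 4 (0.21 to 0.30). It had log2 fold changes of -0.29, -0.36 and -0.21 in WT, Sesn1SkM-Tg and Sesn2SkM-Tg muscle of set 1, none called. Eif4g2, which lacks the eIF4E site and serves cap-independent initiation, was not called against basal muscle in any comparison (-0.30 to 0.15).

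**Figure D5:**
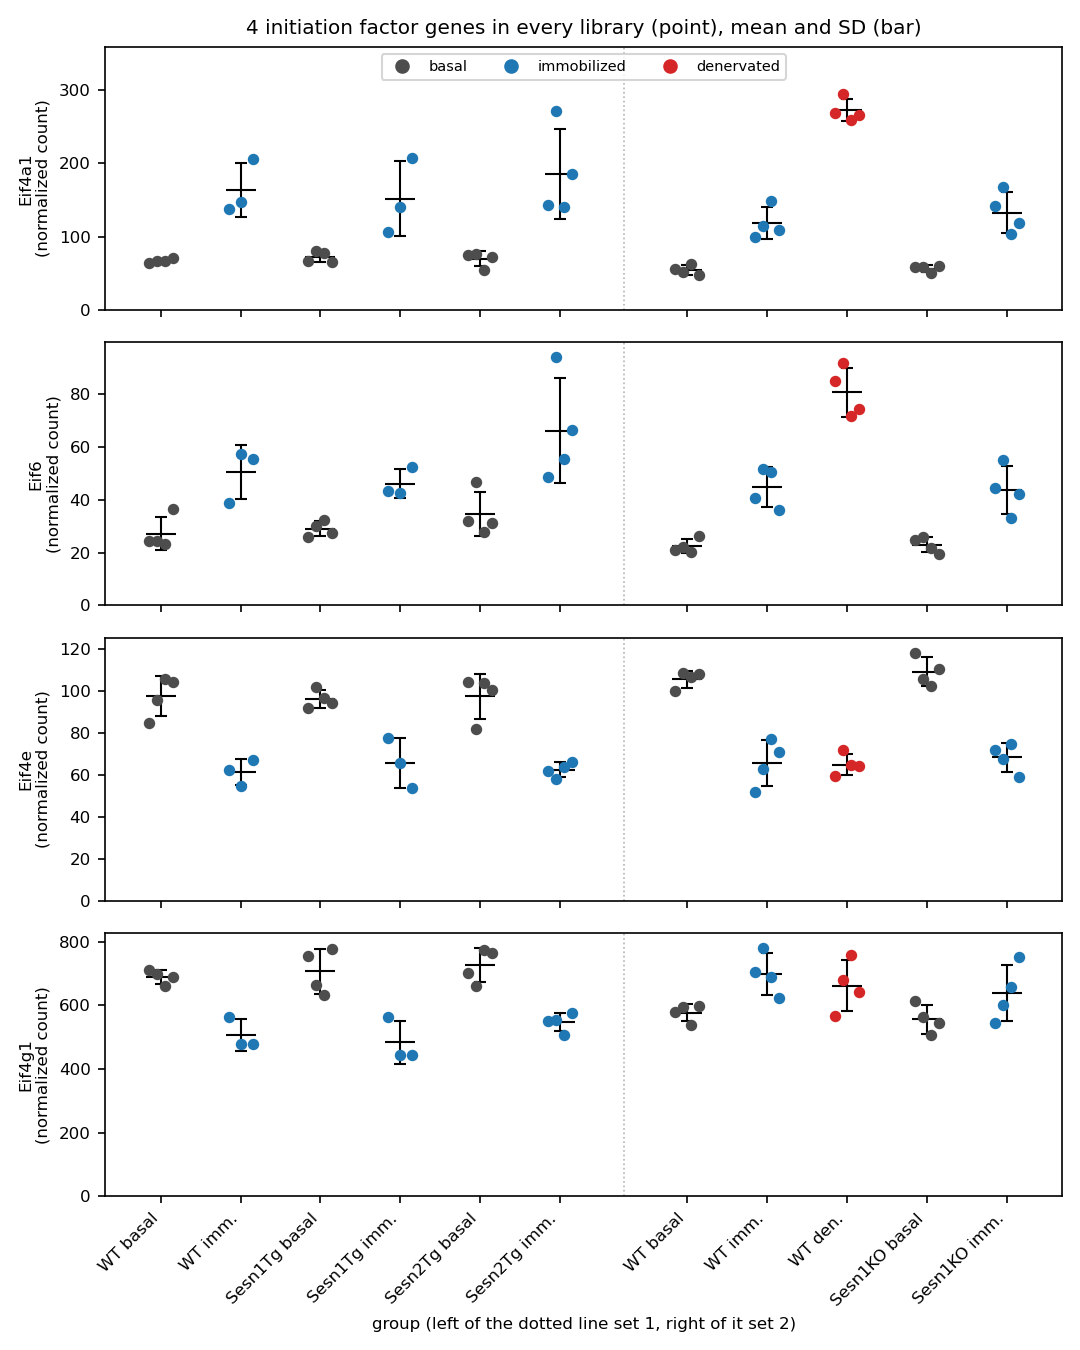
Normalized counts of Eif4a1, Eif6, Eif4e and Eif4g1 (panels from top to bottom) in each library (points, colored by treatment), with the group mean (wide bar) and SD (error bar); the dotted line parts set 1 from set 2. Eif4a1 and Eif6 are highest in denervated muscle (272 ± 15.2 and 80.7 ± 9.27), Eif4e is lower in each disuse group than in its basal group, and Eif4g1 is lower in immobilized muscle of set 1 but not of set 2.

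Proteins that bind eIF4E fell in part. Eif4ebp2 read 56.6, 70.5, 60.6 and 67.9 in basal and 35.5, 47.2, 49.97 and 42.7 in denervated WT muscle (log2 fold change -0.54, SE 0.13, adjusted p = 0.00173), and 70.7, 76.9, 65.8 and 73.9 in basal and 60.1, 33.7 and 34.5 in immobilized WT muscle of set 1 (log2 fold change -0.78, SE 0.24, adjusted p = 0.0177). The WT call of set 1 was lost without WT immobilized replicate 2 or 3 (-0.66 to -0.64). It was also called lower in Sesn1SkM-Tg (log2 fold change -0.99, SE 0.24, adjusted p = 0.0033) and Sesn2SkM-Tg muscle (log2 fold change -0.60, SE 0.22, adjusted p = 0.043), the last of which was lost without Sesn2SkM-Tg basal replicate 1, 3 or 4 or Sesn2SkM-Tg immobilized replicate 1, 2, 3 or 4 (-0.64 to -0.46). Under rescaling the denervation change was -0.081 and was not called. The falls in WT and Sesn2SkM-Tg muscle of set 1 were not called under rescaling either. Eif4ebp3 was not called in any comparison, with log2 fold changes against basal of -0.68 to -0.047. Eif4enif1, the transporter that takes eIF4E into the nucleus, was higher in immobilized WT muscle of set 2 (log2 fold change 0.39, SE 0.092, adjusted p = 0.0025) and lower in Sesn1SkM-Tg muscle (log2 fold change -0.36, SE 0.12, adjusted p = 0.0227), where it was no longer called without Sesn1SkM-Tg basal replicate 1 or Sesn1SkM-Tg immobilized replicate 2 or 3 (-0.35 to -0.29).

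Eif4ebp1, the best known of these binding proteins, was left out by the rule. It was higher in all 6 disuse groups, at 25.6 ± 2.99 in basal, 123 ± 26.4 in immobilized and 128 ± 16.4 in denervated WT muscle of set 2 (log2 fold change 2.28, SE 0.21, adjusted p = 1.15e-08 for denervation). In immobilized muscle its log2 fold changes were 2.27, 1.94 and 2.03 in WT, Sesn1SkM-Tg and Sesn2SkM-Tg of set 1 and 2.20 and 2.26 in WT and Sesn1KO of set 2, all of them called. Eif4ebp1 and Eif4e changed in opposite directions in every disuse group.

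Eif6, which keeps the large ribosomal subunit from joining too early, rose in all 6 disuse groups. Eif6 (ENSMUSG00000027613, chromosome 2, 155819832 to 155826925, minus strand) read 21.04, 22.1, 20.1 and 26.2 in basal, 40.8, 51.7, 50.4 and 36.2 in immobilized and 84.9, 91.7, 71.9 and 74.3 in denervated WT muscle of set 2. The groups did not overlap, with log2 fold changes of 0.96 ± 0.14 (SE) and 1.81 ± 0.14. In Sesn1KO muscle the change was 0.88 ± 0.14, in WT of set 1 0.88 ± 0.21, in Sesn1SkM-Tg 0.65 ± 0.21 and in Sesn2SkM-Tg muscle 0.90 ± 0.19, with adjusted p of at most 0.0202. The Sesn1SkM-Tg call was lost without Sesn1SkM-Tg basal replicate 1 or Sesn1SkM-Tg immobilized replicate 3 (0.55 to 0.60). Basal WT replicate 4 of set 1 read 36.6 and the other 3 basal WT libraries 23.4 to 24.5.

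The GTPase activator Eif5, the joining factor Eif5b and Eif6 were all higher in the 3 disuse groups of set 2. Of all genes 16.2% were called higher in immobilized WT, 17.2% in immobilized Sesn1KO and 27.8% in denervated muscle. Eif5 went from 186 ± 11.8 to 298 ± 51.9 after immobilization (log2 fold change 0.67, SE 0.12, adjusted p = 0.000174) and 257 ± 25.9 after denervation (log2 fold change 0.46, SE 0.12, adjusted p = 0.00216). Eif5b went from 99.0 ± 4.07 to 126 ± 7.05 (log2 fold change 0.34, SE 0.079, adjusted p = 0.00205) and 160.3 ± 13.9 (log2 fold change 0.69, SE 0.079, adjusted p = 2.69e-07). In set 1 neither was called, with log2 fold changes of 0.033 to 0.44 for Eif5 and -0.025 to 0.36 for Eif5b. Eif5a, the hypusine-bearing factor that helps the ribosome past difficult peptide bonds, read 235, 247, 242 and 271 in basal and 507, 511, 457 and 451 in denervated WT muscle (log2 fold change 0.95, SE 0.10, adjusted p = 4.89e-08), and 298, 346, 345 and 280.3 in immobilized muscle (log2 fold change 0.35, SE 0.10, adjusted p = 0.00867). In immobilized Sesn1KO muscle it was higher by 0.32, a call that was lost without Sesn1KO basal replicate 3 or Sesn1KO immobilized replicate 2 (0.22 to 0.27). Its paralog Eif5a2 was at 1.62 ± 0.355 in basal WT muscle of set 2, and was not called in any of the 7 comparisons.

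The scanning factors gave mixed results. Eif1a, whose reads may be shared with its X-linked copy Eif1ax, read 9.73, 9.21, 12.1 and 10.5 in basal and 34.6, 37.8, 31.4 and 31.9 in denervated WT muscle (log2 fold change 1.62, SE 0.18, adjusted p = 1.68e-07). It was also higher in immobilized WT (0.67 ± 0.18, SE) and Sesn1KO muscle of set 2 (0.86 ± 0.18) and in WT (0.91 ± 0.31) and Sesn1SkM-Tg muscle of set 1 (0.93 ± 0.31). The WT call of set 1 was lost without WT basal replicate 4 or WT immobilized replicate 1 or 3 (0.60 to 0.81), and the Sesn1SkM-Tg call was lost without Sesn1SkM-Tg basal replicate 4 or Sesn1SkM-Tg immobilized replicate 3 (0.79 to 0.80). Eif1ax was lower in immobilized WT (-0.45 ± 0.074) and Sesn1KO muscle (-0.37 ± 0.074) and not called after denervation (-0.13 ± 0.074). Eif1, which guards start codon choice, was higher in immobilized WT (0.35 ± 0.084) and Sesn1KO muscle of set 2 (0.46 ± 0.084) and in Sesn2SkM-Tg muscle (0.36 ± 0.13), where it was no longer called without Sesn2SkM-Tg basal replicate 1, 3 or 4 or Sesn2SkM-Tg immobilized replicate 2, 3 or 4 (0.29 to 0.36). Its relative Eif1b was higher in denervated (0.41 ± 0.11) and immobilized Sesn1KO muscle (0.31 ± 0.11), where it was no longer called without Sesn1KO basal replicate 1, 2 or 4 or Sesn1KO immobilized replicate 2 or 3 (0.23 to 0.32). Eif1ad was not called, at -0.23 to 0.22.

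The 3 subunits of eIF2 and related factors rose in set 2 only in part. After denervation Eif2s1 (the alpha subunit that stress kinases phosphorylate) went from 37.6 ± 2.08 to 63.7 ± 5.35 (log2 fold change 0.75, SE 0.081, adjusted p = 1.13e-07), and Eif2s2, Eif2s3x and its Y-linked copy Eif2s3y rose by 0.62, 0.74 and 0.49. Eif2s3y was no longer called without WT basal replicate 2 or 3 or WT denervated replicate 1, 2, 3 or 4 (0.35 to 0.52). Eif2a and Eif2d, which can deliver tRNA without eIF2, were not called there (0.21 and -0.20). In immobilized muscle of set 2, 2 of these 6 genes were higher in WT (all genes 16.2%), Eif2a and Eif2s2. In Sesn1KO 3 were higher (all genes 17.2%), Eif2s1, Eif2s2 and Eif2s3x. The Eif2s1 call was lost without Sesn1KO basal replicate 4 or Sesn1KO immobilized replicate 3 (0.24 to 0.25). In set 1 none of these 6 genes was called, when 29.3% to 34.7% of all genes were. All 5 subunits of eIF2B, the exchange factor that recharges eIF2, were higher after denervation (all genes 27.8%), from 0.38 for Eif2b1 to 0.81 for Eif2b3. Of the 5, 3 were called higher in immobilized WT and 3 in immobilized Sesn1KO muscle of set 2 (all genes 16.2% and 17.2%). In set 1 the counts higher were 1 in WT (14.9%), 0 in Sesn1SkM-Tg (18.2%) and 1 in Sesn2SkM-Tg muscle (15%). Eif2b3 went from 16.6 ± 1.12 to 29.96 ± 2.30 (log2 fold change 0.81, SE 0.11, adjusted p = 1.77e-06) and was higher in immobilized WT muscle of both sets (0.60 ± 0.13 and 0.42 ± 0.11). Eif2b1 and Eif2b4 were higher in immobilized muscle of set 2 in WT (0.39 and 0.65) and Sesn1KO (0.40 and 0.45). Eif2b2 was lower in immobilized Sesn1SkM-Tg muscle (log2 fold change -0.40, SE 0.13, adjusted p = 0.0247), where it was no longer called without Sesn1SkM-Tg basal replicate 3 or Sesn1SkM-Tg immobilized replicate 2 or 3 (-0.39 to -0.32).

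The 4 eIF2 kinases, which shut initiation down under stress, were not called after denervation, when 55.5% of all genes were. The log2 fold changes were 0.00066 ± 0.093 (SE) for Eif2ak1 (HRI), -0.10 ± 0.19 for Eif2ak2 (PKR), 0.024 ± 0.23 for Eif2ak3 (PERK) and -0.13 ± 0.15 for Eif2ak4 (GCN2). Eif2ak4 was called lower in immobilized WT muscle of set 2 (log2 fold change -0.46, SE 0.15, adjusted p = 0.0242) and in Sesn2SkM-Tg muscle (log2 fold change -0.50, SE 0.18, adjusted p = 0.0376). The first was lost without WT basal replicate 1 or 3 or WT immobilized replicate 2 or 3 (-0.45 to -0.33), and the second was lost without Sesn2SkM-Tg basal replicate 1, 3 or 4 or Sesn2SkM-Tg immobilized replicate 2, 3 or 4 (-0.49 to -0.39). Eif2ak2, Eif2ak3 and Eif2ak4 read low, at 5.69 ± 1.42, 4.52 ± 0.948 and 6.40 ± 1.53 in basal WT muscle of set 2, so the added count of 1 understates their changes, while Eif2ak1 was at 55.8 ± 3.12.

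Subunits of eIF3, the scaffold of the initiation complex, rose together in set 2. Of its 14 genes 12 were higher after denervation, 11 in immobilized WT and 10 in immobilized Sesn1KO muscle of set 2, when 27.8%, 16.2% and 17.2% of all genes were, and none was lower. In set 1 the counts higher were 6 in WT (all genes 14.9%), 7 in Sesn2SkM-Tg (15%) and 1 in Sesn1SkM-Tg muscle (18.2%), with median log2 fold changes of 0.32, 0.36 and 0.25. The WT calls of Eif3b, Eif3e and Eif3m were lost in 4, 3 and 2 of the 7 fits leaving out 1 library. That of Eif3l in Sesn2SkM-Tg muscle was lost in 5 of 8. Eif3d went from 37.4 ± 3.08 to 83.2 ± 2.36 after denervation (log2 fold change 1.14, SE 0.083, adjusted p = 3.24e-10), and Eif3b, the core subunit, from 85.2 ± 6.07 to 168 ± 13.4 (log2 fold change 0.97, SE 0.079, adjusted p = 1.68e-09). Eif3c, another core subunit, read 137, 136, 131 and 147 in basal, 212, 261, 254 and 195 in immobilized and 245, 266, 255 and 236 in denervated WT muscle, and was called higher in all 6 disuse groups (0.36 in Sesn2SkM-Tg to 0.86 after denervation). The Sesn2SkM-Tg call was lost without Sesn2SkM-Tg immobilized replicate 4 (0.30). Eif3h and Eif3i were not called in any comparison, at -0.11 to 0.24. Eif3j1 and Eif3j2, near-identical copies whose reads the counting may have split, rose in immobilized WT muscle of set 2 by 0.85 ± 0.12 and 0.84 ± 0.091 and had values of 0.34 ± 0.12 and 0.57 ± 0.091 after denervation. Eif3j1 after denervation was no longer called without WT basal replicate 3 or WT denervated replicate 3 (0.28 to 0.30). In immobilized Sesn1KO muscle their values were 0.72 ± 0.12 and 0.85 ± 0.091, in WT of set 1 0.70 ± 0.25 and 0.78 ± 0.21, and Eif3j2 was at 0.57 ± 0.19 in Sesn2SkM-Tg muscle, all called. In WT of set 1 Eif3j1 was no longer called without WT basal replicate 3 or 4 or WT immobilized replicate 1, 2 or 3 (0.38 to 0.74), and in Sesn2SkM-Tg muscle Eif3j2 was no longer called without Sesn2SkM-Tg basal replicate 1 or 2 or Sesn2SkM-Tg immobilized replicate 2, 3 or 4 (0.48 to 0.58). Eif3g was called in Sesn2SkM-Tg muscle at 0.47 ± 0.14.

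Of the 61 members, 3 were called higher in all 6 comparisons against basal muscle (Eif4a1, Eif6 and Eif3c) and 1 lower (Eif4e), when 2.73% and 5.06% of the 13571 genes tested in both sets were. The 2 WT disuse groups of set 2 were compared with the same 4 basal libraries.

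Denervated muscle differed from immobilized muscle of set 2 in 28 members that were higher and 7 that were lower, when 20.5% and 18.4% of all genes were. With libraries rescaled to 1000000 these were 44 and 1 (all genes 40.4% and 8.66%, median of all genes 0.26). The largest differences were higher Eif4a1 (1.21 ± 0.13, SE), Eef1a1 (0.98 ± 0.24), Eef1e1 (0.96 ± 0.14), Eif1a (0.95 ± 0.18) and Eif6 (0.84 ± 0.14). Lower were Eef1a2 (-1.09 ± 0.10), Eif4e3 (-0.59 ± 0.14), Eif3j1 (-0.51 ± 0.12), Eif4enif1 (-0.42 ± 0.092), Eif1 (-0.29 ± 0.084), Eif4g2 (-0.28 ± 0.088) and Eif3j2 (-0.27 ± 0.091). Adjusted p for these 12 lay between 2.35e-08 and 0.0203. Eif1 was no longer called without WT denervated replicate 1 (-0.22) and was above 0 under rescaling (0.053) and quantile normalization (0.17). Eif3j2 was no longer called without WT denervated replicate 1 or WT immobilized replicate 2 or 3 (-0.23 to -0.22) and was above 0 under rescaling (0.065). Eif4g2 was no longer called without WT denervated replicate 1 or WT immobilized replicate 3 (-0.23 to -0.18) and was above 0 under rescaling (0.065) and quantile normalization (0.25). Eef2k, lower in immobilized than in basal muscle, was higher in denervated than in immobilized muscle (log2 fold change 0.53, SE 0.18, adjusted p = 0.0272), a call that was lost without WT denervated replicate 3 or 4 or WT immobilized replicate 1, 2 or 3 (0.37 to 0.51).

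Genotype had little detectable effect on the members. By limma with Benjamini-Hochberg adjustment, 0 of 61 differed between Sesn1SkM-Tg and WT muscle in the basal state (1 at an unadjusted p under 0.05) or after immobilization (0), when 0.0292% and 0.0073% of all genes did. For Sesn1KO against WT muscle 0 were called in the basal state (2 at an unadjusted p under 0.05) and 0 after immobilization (3), with 0.147% and 0.947% of all genes. Sesn1 was still counted in Sesn1KO muscle, after immobilization at about the level of basal WT muscle (values above). What these Sesn1 counts stand for was not tested. For Sesn2SkM-Tg against WT muscle 0 were called in the basal state (9 at an unadjusted p under 0.05), with 2.5% of all genes, and 3 after immobilization (11), with 2.94%. The difference in the immobilization effect from WT muscle was called for 0 members in Sesn1SkM-Tg (1 at an unadjusted p under 0.05; 0% of all genes), Sesn2SkM-Tg (1; 0.0073%) and Sesn1KO (3; 0.022%). At an unadjusted p under 0.05 by limma, 497 (basal) and 417 (immobilized) of 13705 genes differed between Sesn1SkM-Tg and WT. For Sesn2SkM-Tg against WT these were 2136 and 2637 of 13705, and for Sesn1KO 632 and 1917 of 13629. For the difference in the immobilization effect they were 401, 1008 and 1087 in Sesn1SkM-Tg, Sesn2SkM-Tg and Sesn1KO. The 9 and 11 of 61 members in Sesn2SkM-Tg muscle were thus near the share of all genes.

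The 3 members that differed in immobilized Sesn2SkM-Tg muscle were Eif2b2, Eif4e2 and Eif4e3. Eif2b2 read 38.9, 44.99, 44.1 and 34.5 against 28.0, 29.7 and 23.9 in immobilized WT muscle (log2 fold change 0.56, SE 0.13, adjusted p = 0.0266), Eif4e2 51.5, 63.7, 62.3 and 52.9 against 43.7, 39.0 and 39.0 (log2 fold change 0.49, SE 0.12, adjusted p = 0.0316), and Eif4e3 21.9, 20.3, 23.8 and 20.6 against 38.4, 33.3 and 29.99 (log2 fold change -0.62, SE 0.16, adjusted p = 0.0407). The groups did not overlap for any of them, yet each call rests on single libraries. Eif2b2 was no longer called without Sesn2SkM-Tg immobilized replicate 2 or 3 or WT immobilized replicate 1 or 3 (0.47 to 0.58), Eif4e2 was no longer called without Sesn2SkM-Tg immobilized replicate 2 or 3 or WT immobilized replicate 1, 2 or 3 (0.44 to 0.54), and Eif4e3 was no longer called without Sesn2SkM-Tg immobilized replicate 1, 2, 3 or 4 or WT immobilized replicate 1, 2 or 3 (-0.70 to -0.53). Without basal WT replicate 4 and basal Sesn2SkM-Tg replicate 2, which are not in this comparison but enter its estimate of the spread, 8 members were called, 6 higher and 2 lower (all genes 7.89%). In the basal state the log2 differences from WT muscle were 0.41 ± 0.12 (SE) for Eif2b2 and -0.46 ± 0.15 for Eif4e3, with adjusted p of 0.0822 and 0.107.

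The immobilization effect of WT muscle differed between the sets for 3 of the 61 members, a share below that of all genes (6.2% of 13763 genes called). This comparison was added after the data were seen and fitted over all 42 libraries. The effect was higher in set 2 than in set 1 for Eif4g3 (difference in log2 fold change 0.78, SE 0.19, adjusted p = 0.0132), Eif4g1 (0.72, SE 0.15, adjusted p = 0.00397) and Eif4enif1 (0.65, SE 0.14, adjusted p = 0.00444). For Eef1a1 the difference was -0.99, SE 0.33, adjusted p = 0.0682, and for Eef1a2 0.68, SE 0.22, adjusted p = 0.0589, neither called. With each WT library left out in turn 2 to 5 members were called. Leaving out basal WT replicate 1 of set 1 or immobilized WT replicate 4 of set 2 gave 5. Set and any difference between the cohorts of mice cannot be told apart.

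Other cytosolic translation genes outside the rule also rose more often than they fell after denervation. Of 33 listed genes 20 were higher and 4 lower (all genes 27.8% and 27.7%), and in immobilized muscle of set 2 14 higher and 2 lower in WT (16.2% and 17.7%) and 14 and 4 in Sesn1KO (17.2% and 19.9%). In set 1 the counts were 4 and 3 in WT (14.9% and 14.5%), 4 and 5 in Sesn1SkM-Tg (18.2% and 16.5%) and 5 and 5 in Sesn2SkM-Tg muscle (15% and 15.7%), near or below the shares of all genes. The largest rises after denervation were those of Mknk2, a kinase of eIF4E, from 230.5 ± 16.6 to 1391 ± 121 (log2 fold change 2.59, SE 0.11, adjusted p = 2.28e-13), Eif4ebp1, given above, and Ppp1r15a (GADD34, which directs the dephosphorylation of eIF2 alpha), from 20.7 ± 5.01 to 77.9 ± 5.75 (log2 fold change 1.89, SE 0.25, adjusted p = 1.49e-06). The largest falls were those of the poly(A)-binding protein Pabpc4, from 322 ± 22.5 to 151 ± 10.8 (log2 fold change -1.08, SE 0.10, adjusted p = 9.8e-09), Paip2b (log2 fold change -0.53, SE 0.13, adjusted p = 0.00137) and Mknk1 (log2 fold change -0.42, SE 0.13, adjusted p = 0.0111).

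The 9 genes for mitochondrial translation factors fell more often than they rose. After denervation 4 were lower and 1 higher (all genes 27.7% and 27.8%), led by the elongation factor Tufm, from 128 ± 5.33 to 75.1 ± 5.71 (log2 fold change -0.76, SE 0.089, adjusted p = 3.28e-07), Gfm2 (log2 fold change -0.62, SE 0.088, adjusted p = 4e-06) and Mtif3 (log2 fold change -0.37, SE 0.11, adjusted p = 0.00721), while the recycling factor Mrrf was higher (log2 fold change 0.32, SE 0.10, adjusted p = 0.0102). After immobilization 0 were higher, while 3, 3 and 5 of the 9 were lower in WT, Sesn1SkM-Tg and Sesn2SkM-Tg muscle of set 1 (all genes 14.5%, 16.5% and 15.7%) and 5 and 6 in WT and Sesn1KO muscle of set 2 (17.7% and 19.9%), with median log2 fold changes of -0.41 to -0.29.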

How the data were processed

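RNA of 42 TA muscles was sequenced on an Illumina HiSeq from NEBNext Ultra libraries. Per the labels and the study's methods, the authors checked reads with FastQC, trimmed them with cutadapt 1.7.1, estimated gene counts with RSEM 1.2.20 against the GRCm38 transcriptome and normalized them with limma, and the labels also name edgeR. The deposited signal is 1 normalized count per gene and library, on a linear scale; the reads per library are not given in the sources used here. How the 2 sets were adjusted to each other is not given either, so groups were compared within a set except where said.

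Values were taken as log2(value + 1), genes under 1 in every library of a set were left out, and each set was fitted with limma 3.58.1 (R 4.3.3; trend, all groups of the set in 1 fit) with Benjamini-Hochberg adjustment over all genes. The limma fit was tested on simulated data. Ratios of 2 genes were compared by two-sided exact permutation tests. Exon lengths and gene positions came from GENCODE M21 (GRCm38), which held all 61 members, and promoters from RefSeq (GRCm38.p6). Named members are most elongation factors, Eif4a1 and Eif4a2, the 5 called members with the largest changes in each direction per treatment comparison, those called in all 6 comparisons against basal muscle or between genotypes, and role groups of 5 or fewer; other members named were chosen after their values were seen. Members, gene lists and tests were chosen with earlier results of these data known. Alternatives were the filter, the pseudocount, quantile normalization, centring on the median, rescaling to 1000000, the fit without trend or on the compared groups only, no fold threshold, the replicate number as a block, and each library left out. Reads of near-identical copies (Eif1a and Eif1ax, Eif2s3x and Eif2s3y, Eif3j1 and Eif3j2, and pseudogenes of Eef1a1 and Eif4a1) may have been split between them.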

Additional observations from a re-analysis of the deposited data

Results flagged for a closer look

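In 36 of 549 combinations of a member and a group of 4 libraries (6.56%), the highest or lowest library lay farther from the rest of its group than Dixon's 95% limit; chance alone gives about 1 in 20. Replicate 4 of basal WT (set 1) muscle stood apart in Eef1b2 at 159.7, Eef1g at 609, Eif1 at 610.1, Eif2ak2 at 1.67, Eif2ak3 at 3.31, Eif2s3x at 61.8, Eif3a at 80.996, Eif5b at 57.9 and Eif6 at 36.6. Replicate 2 of basal Sesn2SkM-Tg muscle stood apart in Eef1a2 at 2299.8, Eef1d at 133, Eif1ax at 71.0, Eif3l at 67.7, Eif4e at 81.7, Eif4g2 at 507 and Eif5a at 503. Replicate 2 of immobilized Sesn2SkM-Tg muscle stood apart in Eef1a2 at 1087 and Eef2k at 55.4. Replicate 3 of immobilized Sesn1KO muscle stood apart in Eef1g at 588 and Eif2ak1 at 78.1. Replicate 3 of basal Sesn1SkM-Tg muscle stood apart in Eef2k at 98.8 and Eif2b2 at 41.0. Replicate 1 of basal Sesn1KO muscle stood apart in Eef2k at 81.9 and Eif3i at 79.2. Replicate 4 of basal Sesn1SkM-Tg muscle stood apart in Eif2s2 at 134 and Eif2s3y at 24.8. Replicate 3 of basal Sesn1KO muscle stood apart in Eif4a1 at 49.9 and Eif5 at 175. Replicate 4 of immobilized Sesn1KO muscle stood apart in Eif1ad at 21.7. Replicate 4 of basal WT (set 2) muscle stood apart in Eif1ad at 27.6. Replicate 1 of immobilized Sesn2SkM-Tg muscle stood apart in Eif2ak4 at 4.28. Replicate 4 of basal Sesn1KO muscle stood apart in Eif2b1 at 32.2. Replicate 2 of denervated WT muscle stood apart in Eif3b at 188. Replicate 4 of immobilized WT (set 2) muscle stood apart in Eif3f at 75.4. Replicate 1 of basal Sesn1SkM-Tg muscle stood apart in Eif4g3 at 194. Replicate 1 of denervated WT muscle stood apart in Eif5a2 at 1.81.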

How the results depend on the processing

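Of 189 called changes of members, each alternative kept the direction except that denervated against immobilized muscle gave log2 fold changes of 0.17 (quantile normalization) and 0.053 (rescaled to 1000000) for Eif1, 0.25 (quantile) and 0.065 (rescaled) for Eif4g2 and 0.065 (rescaled) for Eif3j2. The call was lost with the direction kept for 24 of the 189 with rescaling, 24 when the compared groups alone were fitted, 20 with quantile normalization, 8 with the replicate block, 6 with centring on the median, 7 without trend and 1 each without the filter and with a pseudocount of 0.1. It was lost in 169 of 1480 combinations of a change and a library left out. The causes were not tested. Members called in immobilized against basal muscle of set 1 (16 in WT, 13 in Sesn1SkM-Tg, 16 in Sesn2SkM-Tg) became 31, 23 and 34 with rescaling, 21 in Sesn1SkM-Tg with quantile normalization, 7 in WT with only the compared groups, and 25 in WT and 27 in Sesn1SkM-Tg without basal WT replicate 4 and basal Sesn2SkM-Tg replicate 2, an alternative chosen after seeing the data. The 3 members that differed between Sesn2SkM-Tg and WT immobilized muscle became 1 with rescaling, 1 with only the compared groups and 8 without those 2 libraries.

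With each library left out in turn, the members called ranged from 7 (without immobilized replicate 3) to 19 (without basal replicate 4) in WT of set 1, from 8 (without immobilized replicate 3) to 15 (without immobilized replicate 1) in Sesn1SkM-Tg, and from 10 (without basal replicate 1, immobilized replicate 3 or immobilized replicate 4) to 20 (without basal replicate 2) in Sesn2SkM-Tg muscle. They ranged from 28 to 36 in WT and 26 to 31 in Sesn1KO muscle of set 2, 40 to 44 after denervation and 32 to 35 for denervated against immobilized muscle. Between genotypes they ranged from 0 to 2 for immobilized Sesn2SkM-Tg against WT, 0 to 3 (3 without basal WT replicate 4) for basal Sesn2SkM-Tg against WT and 0 to 1 (1 without immobilized Sesn1KO replicate 4 or immobilized WT replicate 3) for immobilized Sesn1KO against WT, and from 2 to 5 for the difference between the sets.

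Among same-numbered libraries of different groups, 18 of 51 pairs in set 1 and 6 of 40 in set 2 had a correlation of deviations over 0.1. The medians were 0.037 (range -0.45 to 0.53) and -0.029 (-0.24 to 0.235), against 0.019 and 0.0075 for differently numbered pairs. These medians show no clear pairing by number, but they cannot tell whether same-numbered libraries share a litter or batch. For differently numbered pairs the share over 0.1 was not taken, so 18 of 51 has nothing to be set against. With the replicate number as a block, 13, 14 and 17 members were called in WT, Sesn1SkM-Tg and Sesn2SkM-Tg of set 1, 32 and 30 in WT and Sesn1KO of set 2, 42 after denervation and 34 for denervated against immobilized muscle. Depth is unknown, so precision is limited by the 3 or 4 libraries a group.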
